A study of Homo sapiens with 12 samples.

Results

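The Wnt target genes examined here are SP5, SP8, LEF1, TCF7, AXIN2, NKD1, DKK1, NOTUM, RNF43 and ZNRF3, which are 10 of the 28278 genes in the count table. The 10 genes were chosen by name, and SP5 was chosen because its transcript is on in UBQLN1 knockout (KO) cells and near zero in wild-type (WT) cells. The KO against WT values of the members are therefore a description, with no test. RNA-sequencing was done on WA26 hESCs, a human embryonic stem cell line, in 4 groups of 2 libraries each. WT cells were kept at 20% O2, and KO cells were kept at 20% O2 without treatment, at 5% O2, or with N-acetylcysteine (NAC), an antioxidant. The labels give no oxygen level for the NAC libraries. The labels give no length of exposure, and the study's text speaks both of a day of culture and of many passages, so time of exposure and treatment cannot be told apart where the treated groups are compared. All cells grew in E8 medium on Matrigel. The KO was made with CRISPR-Cas9 and a pair of guide RNAs against UBQLN1, which encodes a shuttle that carries ubiquitinated proteins to the proteasome, and KO and WT clones were picked. The clone behind each library is not named, so clone and genotype cannot be told apart. The study's vehicle for NAC was DMSO, and the NAC libraries were compared here with the untreated KO libraries at 20% O2. WT cells at 5% O2 or with NAC were not analysed here. The labels do not say whether the replicates are separate cultures, so p-values measure only the spread between these libraries.

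In canonical Wnt signalling, a Wnt protein binds a Frizzled receptor and an LRP co-receptor, and the complex that otherwise marks beta-catenin for destruction is inhibited. Beta-catenin then enters the nucleus and joins transcription factors of the TCF/LEF family on their target genes. Many of these targets encode brakes of the same pathway, and in pluripotent cells the pathway is known for opening the way to primitive streak and mesendoderm.

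The promoters of SP5, DKK1 and SP8 are shown because these were the members whose promoter window held the core of the TCF/LEF motif, CTTTGA, on either strand. The sequences are from RefSeq on GRCh38.p14 and run 5′ to 3′ on the strand of the gene, over the 250 bases before the transcription start, and capitals mark CTTTGA or its reverse complement TCAAAG. The windows are chr2:170715087-170715336 on the plus strand for SP5, chr10:52314031-52314280 on the plus strand for DKK1, and chr7:20786887-20787136 on the minus strand for SP8.
SP5: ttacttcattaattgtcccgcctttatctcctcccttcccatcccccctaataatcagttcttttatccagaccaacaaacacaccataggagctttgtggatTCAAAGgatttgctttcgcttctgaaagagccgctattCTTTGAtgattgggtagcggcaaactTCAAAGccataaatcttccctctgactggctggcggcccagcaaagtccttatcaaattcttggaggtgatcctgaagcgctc
DKK1: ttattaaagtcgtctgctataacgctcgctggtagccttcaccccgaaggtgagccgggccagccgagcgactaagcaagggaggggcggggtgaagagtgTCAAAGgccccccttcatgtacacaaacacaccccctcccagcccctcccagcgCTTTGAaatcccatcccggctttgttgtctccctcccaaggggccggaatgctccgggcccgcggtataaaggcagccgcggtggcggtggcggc
SP8: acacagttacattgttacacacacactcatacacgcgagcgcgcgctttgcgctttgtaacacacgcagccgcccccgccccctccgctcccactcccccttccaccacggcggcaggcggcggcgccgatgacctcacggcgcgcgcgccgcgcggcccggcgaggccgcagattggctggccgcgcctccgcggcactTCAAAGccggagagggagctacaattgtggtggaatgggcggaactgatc
The SP5 window held 3 cores. The first lay 147 to 142 bases before the start as TCAAAG, the next 109 to 104 bases before it as CTTTGA, and the last 83 to 78 bases before it as TCAAAG. DKK1 held 2 cores and SP8 held 1. Of 35116 promoter windows of the same length in the table, 11.2% held at least 1 core, 0.977% held at least 2 and 0.0655% held at least 3. No core was found in the windows of LEF1, TCF7 and RNF43. The LEF1 window (chr4:108166302-108166551, minus strand) lies inside the gene, which ends at 108168932. Both TCF7 windows (chr5:134115363-134115612 and chr5:134123368-134123617, plus strand) lie inside the gene, which starts at 134108218. An RNF43 window (chr17:58402722-58402971) also lies inside its gene. The bases before the outermost start of LEF1 and TCF7 were therefore not searched. The GC box GGGCGG or its reverse complement CCGCCC, which SP factors can bind and which does not overlap the TCF/LEF core, was found 3 times for SP8, 2 times for LEF1, 1 time for DKK1, 1 time in 1 of the 2 TCF7 windows and not in the windows of SP5 and RNF43, against 42.6% of all windows with at least 1. These matches describe the letters of the windows and are not measured binding sites. Of the 10 members, 6 had an entry, with 8 windows between them, and AXIN2, NKD1, ZNRF3 and NOTUM had none.

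The libraries held 31236968 to 41639350 counts, and 15916 genes passed the filter on low counts, all 10 members among them. DKK1 passed it through its NAC libraries alone, so no test of DKK1 and no call of it is given. UBQLN1 was at 221 and 197 CPM (counts scaled to library size by edgeR's TMM method) in WT and at 42.2 to 62.4 CPM in the 6 KO libraries. The 10 markers of pluripotent stem cells, such as POU5F1 and SOX2, were detected in every library, at a summed level of 5483 to 6567 CPM. The first NAC library stood apart from the rest. It held 1809 counts of DCN, 1114 of COL3A1 and 148 of LUM, which encode matrix proteins of fibroblasts, and the other NAC library held 0 counts of each. The summed level of the 8 mesenchymal and fibroblast markers was 936 CPM in that library, 546 CPM in the other NAC library and 511 to 627 CPM in the remaining 6 libraries, and all 8 markers were detected in it, while 2 to 4 of them were at 0 in each other library. The NAC results are therefore given with and without the first NAC library. Whether these markers had a part in the NAC results was not tested further.

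**Figure D1:**
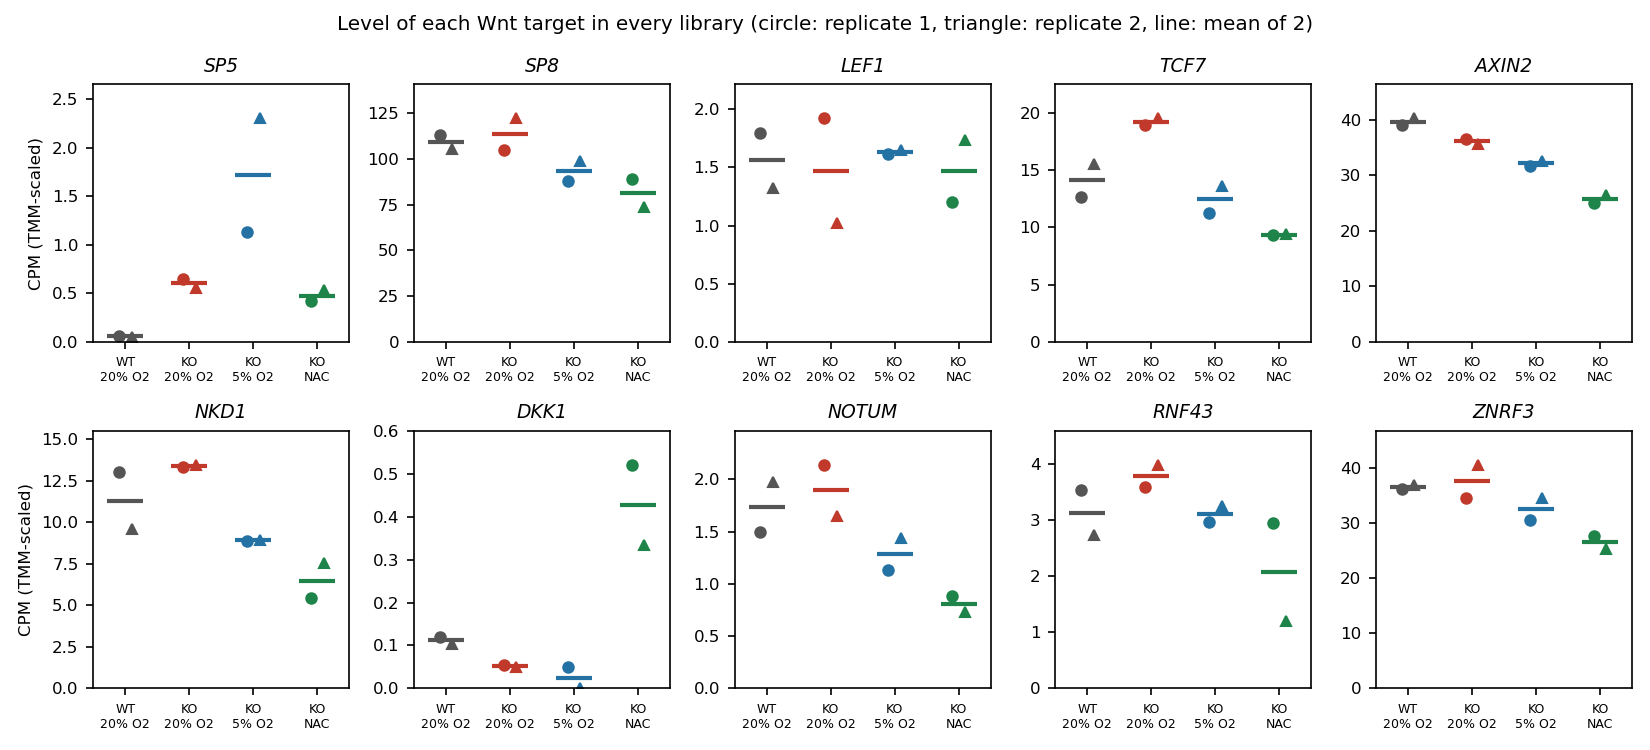
Levels of the 10 Wnt target genes in CPM (vertical axes, each from 0) in the 8 libraries, grouped as WT and KO at 20% O2, KO at 5% O2 and KO with NAC. Circles and triangles are replicates 1 and 2 and lines are the mean of the 2. SP5 stood highest at 5% O2, DKK1 stood highest with NAC, and TCF7, AXIN2, NKD1 and ZNRF3 were lowest with NAC.

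The members spanned a wide range of levels. Per kilobase of the reference transcript, SP8 had the highest mean level in WT cells, at 30.1 CPM per kb, followed by AXIN2 at 9.31, ZNRF3 at 5.31 and TCF7 at 4.29. NOTUM at 0.780, RNF43 at 0.692 and NKD1 at 0.663 CPM per kb came next, and their 2 libraries overlapped, so their order was within the spread. The reference transcript of NKD1 has 17039 bases, against 2223 for NOTUM and 4522 for RNF43. Before division by length, NKD1 had a mean of 11.3 CPM in WT, against 1.73 for NOTUM and 3.13 for RNF43. LEF1 followed at 0.436, DKK1 at 0.0619 and SP5 at 0.0273 CPM per kb. In KO cells at 20% O2, SP5 was at 0.318 and 0.273 CPM per kb, which lay within or just below the range of LEF1 at 0.538 and 0.285. At 5% O2, SP5 was at 0.551 and 1.13 CPM per kb, a range that included both libraries of RNF43 (0.656 and 0.717) and overlapped NOTUM (0.507 and 0.645). In bulk RNA, fewer cells with a transcript and less transcript per cell cannot be told apart.

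SP5 encodes a zinc-finger factor of the SP family and is a direct target of beta-catenin. The gene lies on chromosome 2 from 170715337 to 170718078, on the plus strand. SP5 had 2 and 2 counts in the WT libraries, 24 and 23 in KO cells at 20% O2, 46 and 74 at 5% O2, and 16 and 16 with NAC. In CPM these were 0.0599 and 0.0518 in WT, 0.650 and 0.559 in KO, 1.13 and 2.31 at 5% O2, and 0.417 and 0.534 with NAC. Both WT libraries were thus below every KO library, the 5% O2 libraries were above all others and differed from each other, and the NAC libraries were just below the untreated KO libraries. A count of 1 was worth 0.0243 to 0.0334 CPM, so the WT level rested on 4 counts in all. The ratio of summed counts of KO to WT, scaled to depth, was 10.8 (exact conditional binomial 95% interval 3.96 to 41.4). Such intervals cover counting error only, and this one is not a test, since SP5 was chosen on this contrast.

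SP5 was higher at 5% O2 than with NAC. The log2 fold change of NAC against 5% O2 was -1.84 (SE 0.53, adjusted p = 0.0218, edgeR quasi-likelihood F-test, Benjamini-Hochberg), with a count ratio of 0.285 (0.186 to 0.423). Without the first NAC library the log2 fold change was -1.67 (adjusted p = 0.0772), and without the second library at 5% O2 it was -1.25 (adjusted p = 0.265). With a smooth length and GC trend taken out of each library the log2 fold change was -1.58 (adjusted p = 0.0574), and over all alternatives the adjusted p ran from 0.00747 to 0.265. SP5 at 5% O2 against untreated KO had a log2 fold change of 1.50 (SE 0.51), with an unadjusted p of 0.0132 and an adjusted p of 0.094, which did not pass, and a count ratio of 2.74 (1.94 to 3.92). With NAC against untreated KO its log2 fold change was -0.35 (SE 0.54, 95% interval -1.53 to 0.84, adjusted p = 0.641), -0.18 without the first NAC library and 0.088 after removal of the trend, where the direction turned. SP5 was chosen for being on in KO libraries, and the untreated, 5% O2 and NAC libraries compared here are all KO. The p-values of SP5 in this paragraph are therefore given as a description only.

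None of the tested neighbours of SP5 was called between the KO groups. LINC01124, a long noncoding RNA that lies 770 bases away, was not tested. It had 0 counts in each library, which allows up to 0.0728 to 0.100 CPM. ERICH2-DT, a long noncoding RNA on the opposite strand, overlaps SP5 without overlap of exons and has no row in the count table. MYO3B, a myosin gene 60170 bases away, was at 0.470 to 1.40 CPM, ERICH2, 52300 bases away on the other side, was at 1.98 to 4.05 CPM, and GAD1, which makes the transmitter GABA and lies 95132 bases away, was at 0.365 to 1.12 CPM. For MYO3B, ERICH2 and GAD1 no comparison of the KO groups passed the adjusted p, and the lowest was 0.295.

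The 5 tested genes whose log2 CPM followed SP5 most closely over the 8 libraries were TFPI (Pearson's r = 0.97), EMILIN2 (0.95), NNAT (0.95), C9orf64 (0.95) and C2orf88 (0.94). The 8 libraries fall into 4 groups and were ranked over 15915 genes, so these values only describe the pattern. TFPI, an inhibitor of blood coagulation, was at 1.70 CPM in WT, 4.88 in KO, 10.3 at 5% O2 and 4.11 with NAC, as means of 2 libraries. NNAT, an imprinted gene, had the same order of means at 104, 125, 157 and 122 CPM. The other 9 members had r from -0.44 for AXIN2 to 0.11 for LEF1, none of them near the values of the 5 genes above.

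**Figure D2:**
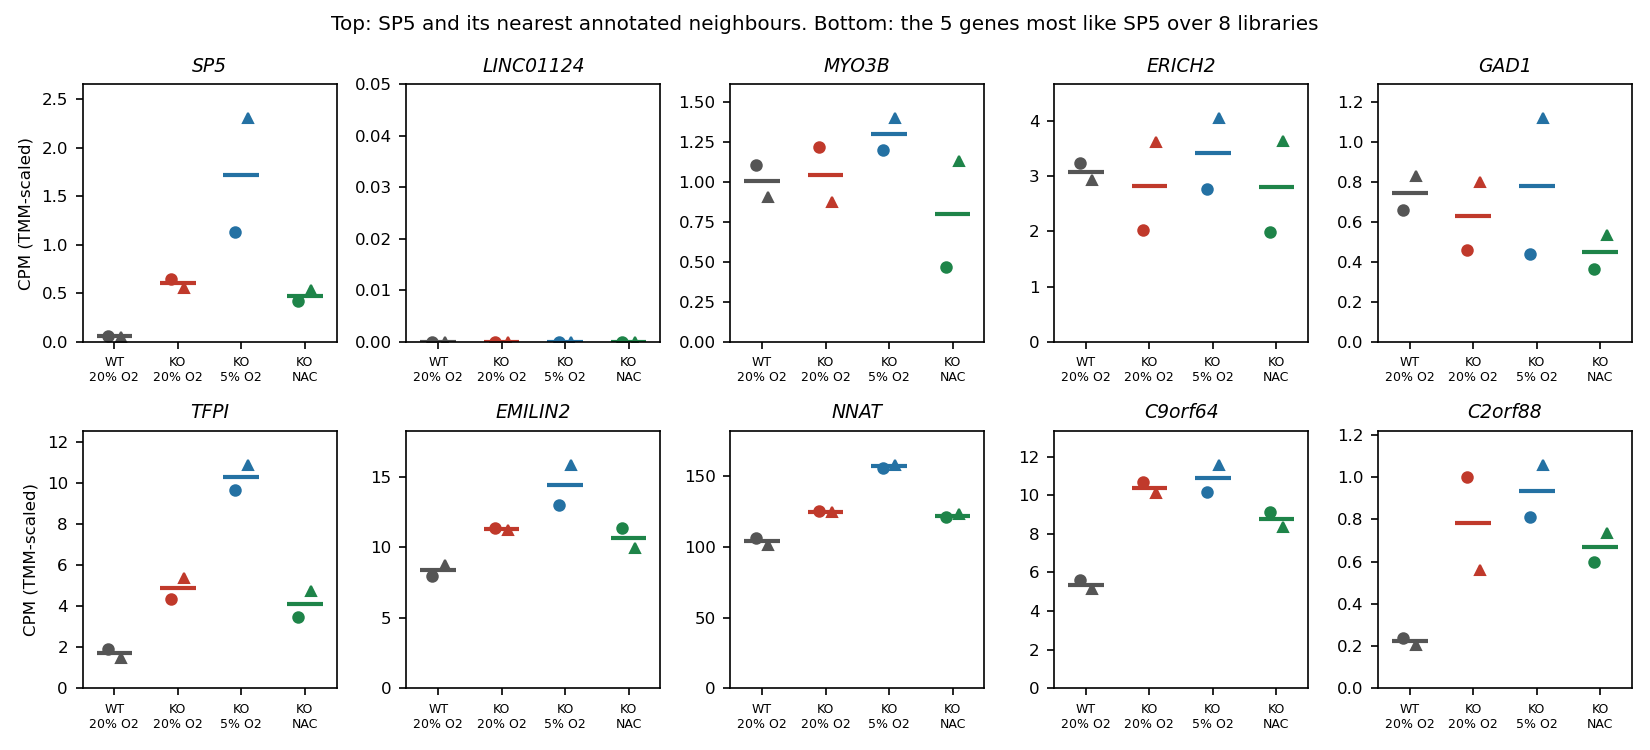
Levels in CPM (vertical axes from 0) of SP5, its 4 nearest annotated neighbours in the table (top row) and the 5 genes with the highest Pearson correlation with SP5 (bottom row) in the 8 libraries. Circles and triangles are replicates 1 and 2 and lines are means; LINC01124 was at 0 throughout, while TFPI had a mean of 1.70 CPM in WT and 10.3 CPM at 5% O2.

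Between KO and WT at 20% O2, the contrast on which SP5 was chosen, 1.34% of all tested genes were called higher by adjusted p and 0.622% lower. The criteria of the study (fold change of more than 1 log2 unit, p under 0.05 before adjustment) were met by 2.57% of all tested genes in either direction. No call is given for the members here. TCF7 was at 12.7 and 15.5 CPM in WT and 18.9 and 19.5 CPM in KO, without overlap, with a log2 fold change of 0.45 (SE 0.15). For RNF43, NKD1, NOTUM, SP8, ZNRF3, LEF1 and AXIN2 the log2 fold changes ran from 0.27 for RNF43 to -0.13 for AXIN2. DKK1 had 4 and 4 counts in WT and 2 and 2 in KO.

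With NAC, AXIN2, NKD1, NOTUM, SP8, TCF7 and ZNRF3 were lower than in untreated KO cells, which is 6 of the 9 members other than DKK1. Over all tested genes 20.8% were called lower and 23.8% higher. The median log2 fold change of the 9 members was -0.51, against 0.023 over all tested genes. By the criteria of the study NKD1, NOTUM and TCF7 were called, where 9.02% of all tested genes were. Without the first NAC library, AXIN2, NKD1, NOTUM, RNF43, SP8, TCF7 and ZNRF3 were called lower, where 19.7% of all genes were, and the median was -0.62. By the criteria of the study the calls without that library were NOTUM, RNF43 and TCF7, where 8.59% of all genes were called.

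The size of these falls changed when a length and GC trend was removed, and whether the trend was a cause was not tested. Over 14828 genes, the log2 fold change with NAC fell with the GC content of the transcript (Spearman's rho = -0.50 across genes, which are not independent replicates), and the members other than DKK1 had 51.5% to 66.3% GC. With length and GC trends taken out together, TCF7 was the member still called, where over all genes 14.7% were higher and 10.3% lower, and the median of the 9 members was -0.14, against 0.030 over all tested genes. Among the 9 members the change did not go in the order of GC content, and the parts of length and GC were not tested apart.

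**Figure D3:**
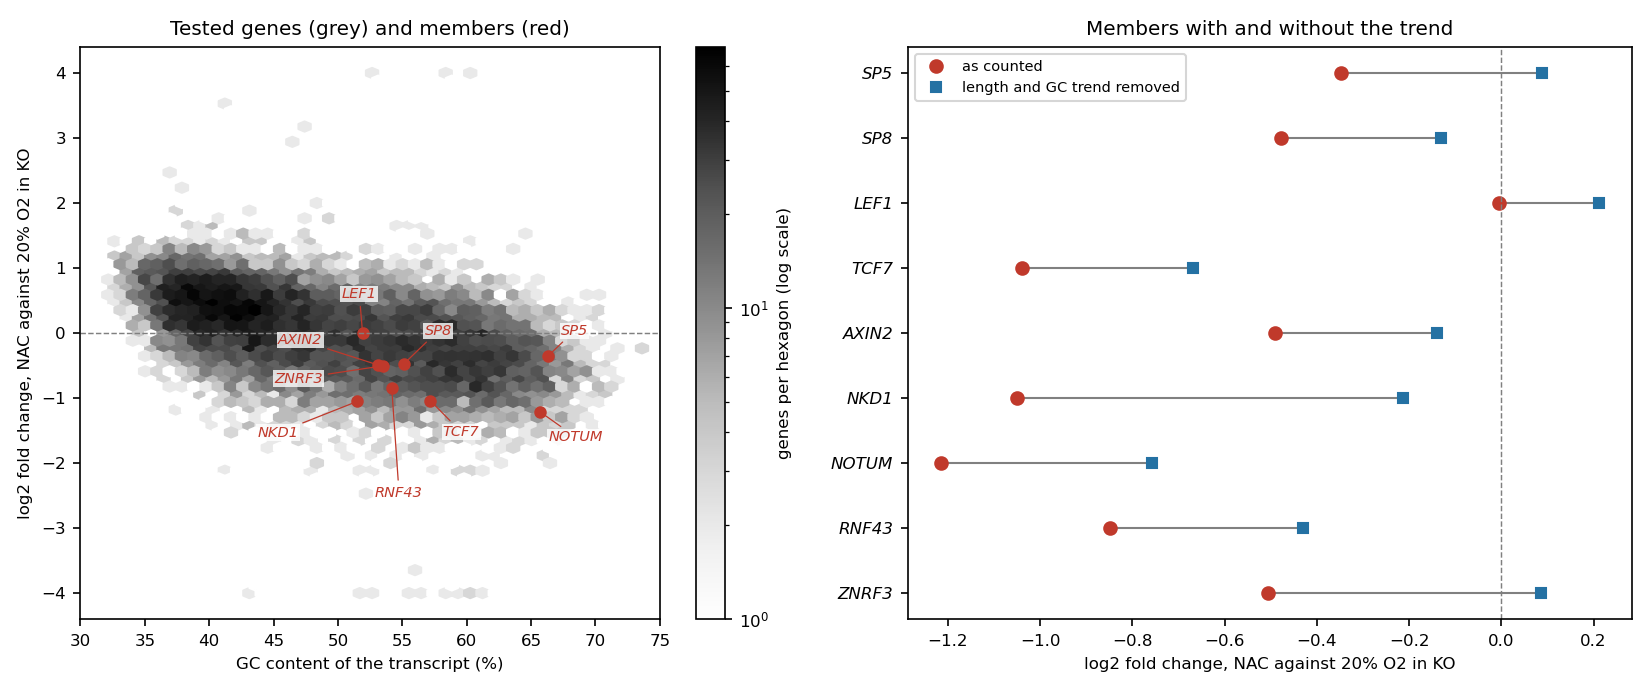
Left, log2 fold change with NAC against untreated KO (vertical axis, values beyond 4 in either direction drawn at 4) against transcript GC content in percent, with tested genes as grey hexagons shaded by number on a log scale and 9 members in red. Right, log2 fold change of the same 9 members as counted (red circles) and after removal of the length and GC trend (blue squares); TCF7 went from -1.04 to -0.67 and ZNRF3 from -0.51 to 0.086, and DKK1 is left out because its untreated libraries held 2 counts each.

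Among the transcription factors, TCF7, a TCF/LEF family member that carries the Wnt signal to DNA, was called under every alternative with NAC. TCF7 was at 18.9 and 19.5 CPM in KO cells, 11.3 and 13.6 at 5% O2, and 9.29 and 9.42 with NAC. Both treated groups lay below the untreated KO libraries and did not overlap with each other. With NAC its log2 fold change was -1.04 (SE 0.16, adjusted p = 0.00024), -1.03 without the first NAC library and -0.67 (adjusted p = 0.00584) after removal of the trend, and its adjusted p stayed under 0.05 in all 17 alternatives, from 1.6e-08 to 0.00685. An exon of SKP1 on the opposite strand shares 210 of the 10093 exonic bases of TCF7, or 2.08%.

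SP8, another SP family factor, was at 105 and 122 CPM in KO cells and at 89.3 and 74.0 CPM with NAC. The groups did not overlap, and the log2 fold change was -0.48 (SE 0.12, adjusted p = 0.00566), -0.62 without the first NAC library and -0.13 after removal of the trend, where it was not called (adjusted p = 0.424, range over alternatives 3.84e-05 to 0.448). LEF1, the TCF/LEF factor that marks strong Wnt activity in many tissues, was at 1.92 and 1.02 CPM in KO cells and at 1.20 and 1.74 CPM with NAC. These ranges overlapped, and its log2 fold change was -0.0054 (95% interval -0.88 to 0.87, adjusted p = 0.993). It turned to 0.24 without the first NAC library and to 0.21 after removal of the trend.

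Of the brakes inside the cell, AXIN2, a scaffold of the destruction complex and a general readout of Wnt activity, was at 36.6 and 35.7 CPM in KO cells, 31.7 and 32.7 at 5% O2, and 24.9 and 26.5 with NAC. The 3 groups did not overlap. With NAC it fell by 0.49 on the log2 scale (SE 0.0995, adjusted p = 0.0018), by 0.45 without the first NAC library, and by 0.14 after removal of the trend, where it was not called (adjusted p = 0.281, range over alternatives 6.66e-05 to 0.326). NKD1, which binds Dishevelled and dampens the signal, was at 13.3 and 13.5 CPM in KO cells, 8.88 and 8.94 at 5% O2, and 5.43 and 7.55 with NAC. With NAC the log2 fold change was -1.05 (SE 0.20, adjusted p = 0.00117), -0.83 without the first NAC library and -0.21 after removal of the trend, where it was not called (adjusted p from 1.08e-06 to 0.528 over the alternatives).

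Of the secreted antagonists, DKK1, which blocks the LRP co-receptors, went the other way. DKK1 had 4 and 4 counts in WT, 2 and 2 in untreated KO, 2 and 0 at 5% O2, and 20 and 10 with NAC. Both NAC libraries were above all others, and the one without DCN, LUM or COL3A1 counts still held 10 counts of DKK1. The ratio of summed counts of NAC to untreated KO was 8.58 (counting interval 3.02 to 33.5), which is a description, with no test. NOTUM, an enzyme that removes the lipid from Wnt proteins, was at 2.14 and 1.65 CPM in KO cells and at 0.887 and 0.735 CPM with NAC, without overlap. The log2 fold change was -1.22 (SE 0.37, adjusted p = 0.0188), -1.36 without the first NAC library (adjusted p = 0.0281) and -0.76 after removal of the trend, where it was not called (adjusted p = 0.155, range over alternatives 0.0107 to 0.182).

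Of the ubiquitin ligases that clear Frizzled from the membrane, ZNRF3 was at 34.5 and 40.6 CPM in KO cells and at 27.7 and 25.2 CPM with NAC. Its log2 fold change was -0.51 (SE 0.12, adjusted p = 0.00428), -0.58 without the first NAC library and 0.086 after removal of the trend, where the direction turned. RNF43 was at 3.58 and 3.98 CPM in KO cells, and its NAC libraries differed from each other, with 2.95 CPM in the first and 1.20 CPM in the second. Its log2 fold change was -0.85 (SE 0.36, adjusted p = 0.0749), and without the first NAC library it was -1.65. With all libraries kept, RNF43 was called lower by DESeq2 and with no filter on low counts. Its call thus depended on the method and the filter as well as on 1 library. After removal of the trend the value was -0.43 (adjusted p = 0.427, range over alternatives 0.00116 to 0.427).

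**Figure D4:**
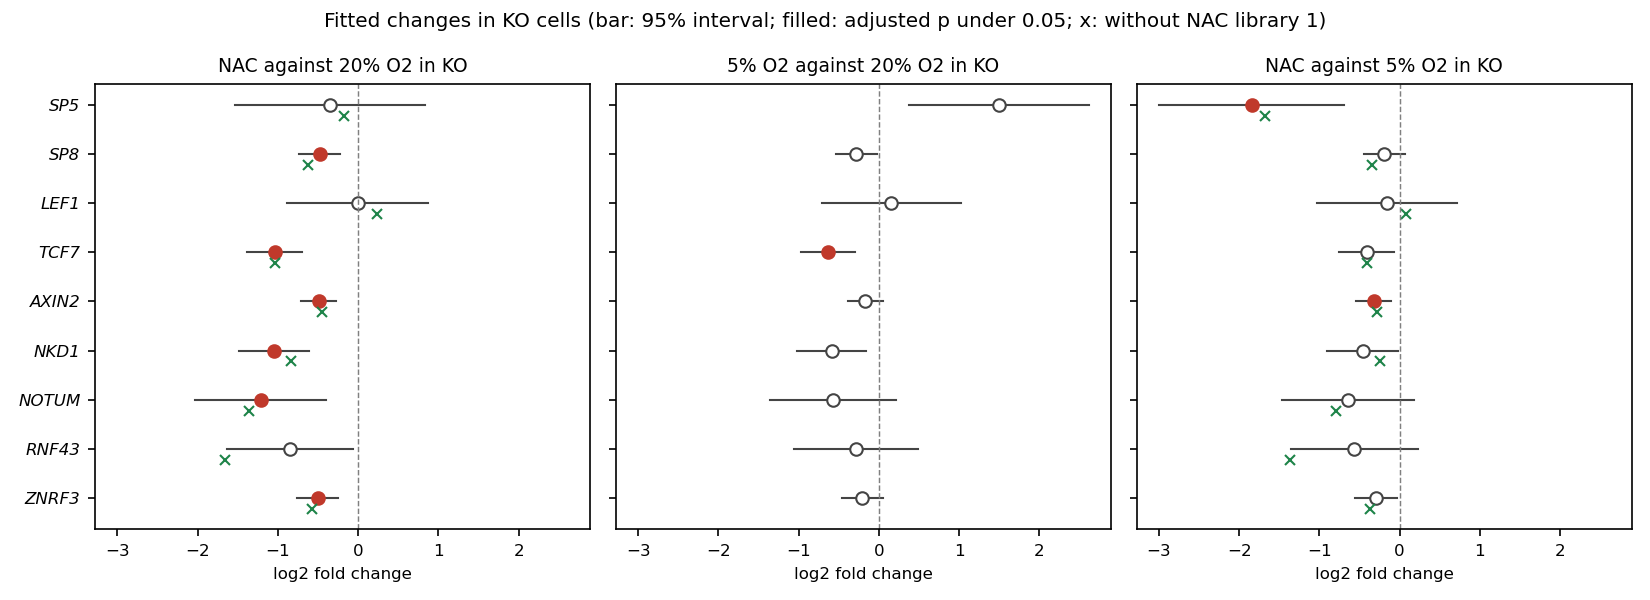
Log2 fold change of 9 members (horizontal axis) in the 3 comparisons among KO groups, with bars for 95% intervals, filled red circles for an adjusted p under 0.05, and crosses for the value without the first NAC library. DKK1 is left out for its low counts; with NAC against 20% O2, SP8, TCF7, AXIN2, NKD1, NOTUM and ZNRF3 are filled, and at 5% O2 TCF7 is the filled member.

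At 5% O2, 1 of the 9 members other than DKK1 was called against untreated KO cells. TCF7 fell by 0.63 on the log2 scale (SE 0.15, adjusted p = 0.0329), where 4.13% of all tested genes fell and 3.68% rose. After removal of the trend TCF7 was at -0.47 and was not called, and its adjusted p ran from 0.00445 to 0.31 over the alternatives. NKD1 was at -0.59 (adjusted p = 0.0868), NOTUM at -0.57, RNF43 at -0.29, SP8 at -0.28, ZNRF3 at -0.21, AXIN2 at -0.17 and LEF1 at 0.16 in log2 fold change, none of which passed. By the criteria of the study 2.02% of all tested genes were called. SP5 was the member that met them, but it was chosen for being on in KO libraries, so nothing is read from that. The untreated KO libraries are shared between this comparison and the one with NAC.

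Between the NAC and 5% O2 groups, which share no library, AXIN2 and SP5 passed the adjusted p and were lower with NAC. These are 2 of the 9 members other than DKK1, where 13.6% of all tested genes were lower and 15.5% higher. SP5 was chosen for being on in KO libraries, so its values in this comparison are a description only. AXIN2 had a log2 fold change of -0.32 (SE 0.0997, adjusted p = 0.0306). DKK1 had a count ratio of 16.0 (4.06 to 138) on 30 against 2 counts, given with no test. By the criteria of the study SP5 was called, where 4.42% of all tested genes were. Without the first NAC library the calls were RNF43 (log2 fold change -1.37, adjusted p = 0.00868) and SP8 (-0.34, adjusted p = 0.0492), again 2 of 9 and lower with NAC, where 12.8% of all genes were lower, and AXIN2 (-0.28, adjusted p = 0.0954) and SP5 were not called. Over all alternatives the adjusted p of this comparison ran from 0.014 to 0.405 for AXIN2, 0.00868 to 0.88 for RNF43 and 0.0492 to 0.998 for SP8. After removal of the trend AXIN2 was at -0.13, and none of the 9 members other than DKK1 was called by edgeR, with SP5 at an adjusted p of 0.0574. DESeq2 on the counts as deposited called AXIN2, SP5, TCF7 and ZNRF3 lower.

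The other genes of the pathway were taken from 8 lists of 114 genes, of which 94 were tested. With NAC, 37 were lower and 10 higher, where 20.8% and 23.8% of all tested genes were, and the median log2 fold change was -0.37. Without the first NAC library 36 of 95 were lower and 8 higher, where 19.7% and 21.2% of all genes were. After removal of the trend 16 were lower and 13 higher, where 10.3% and 14.7% of all genes were, and the median was -0.12. The largest changes by the naming rule included those of CSNK1E, WNT10B, RSPO4 and MIXL1. For the counts by list given below with NAC against untreated KO, the shares over all genes are those of this paragraph.

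**Figure D5:**
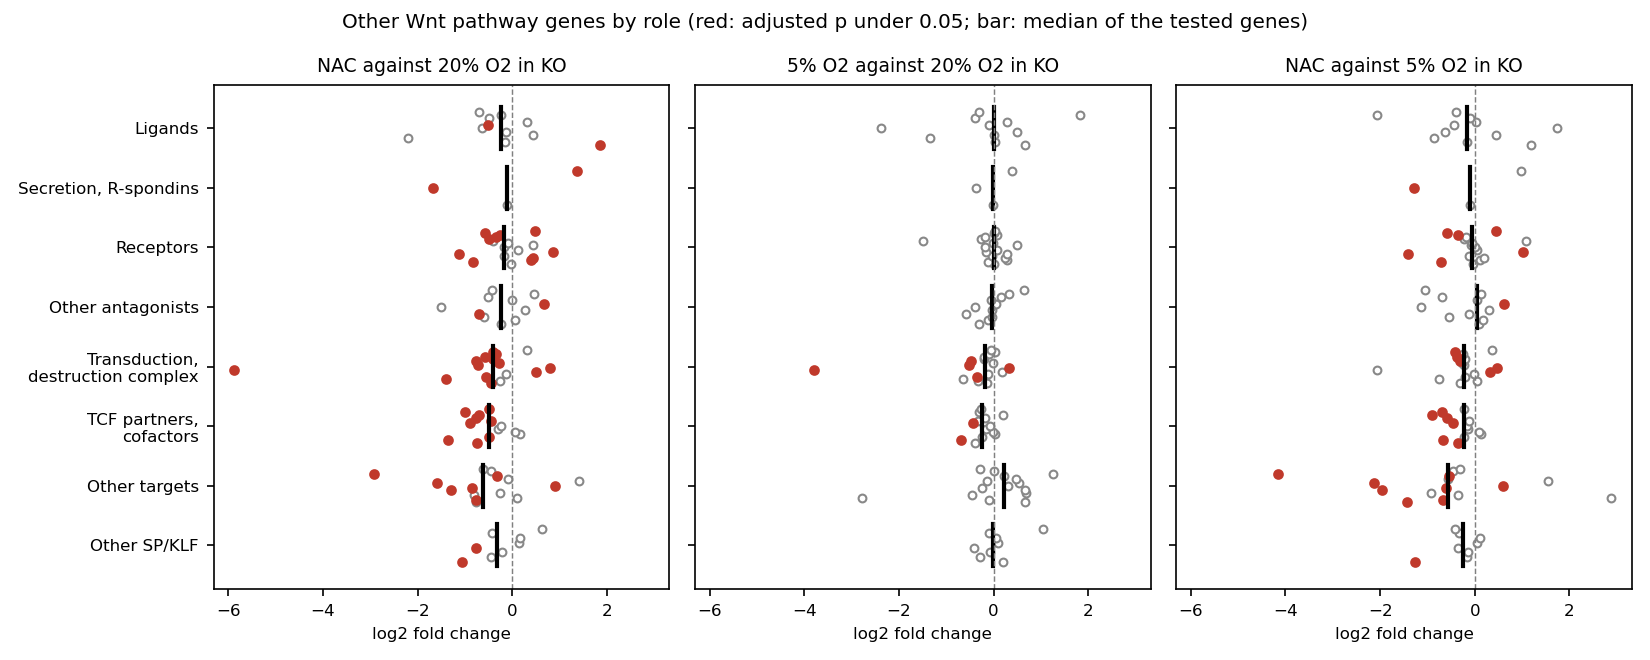
Log2 fold change (horizontal axis) of the 94 tested other Wnt pathway genes in 8 lists by role, in the 3 comparisons among KO groups. Red points passed an adjusted p of 0.05, open points did not, and bars are list medians; with NAC, 9 of 13 TCF partners and cofactors and 11 of 16 transduction genes were lower, against 5 and 3 after removal of the trend.

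Among the ligands and their helpers, WNT10B, a canonical Wnt ligand, was at 0.894 and 1.34 CPM in KO cells and at 5.17 and 2.94 CPM with NAC. Its log2 fold change was 1.86 (SE 0.62, adjusted p = 0.0292), 1.39 without the first NAC library (adjusted p = 0.115) and 2.12 after removal of the trend (adjusted p = 0.0357). RSPO4, an R-spondin that protects Frizzled from ZNRF3 and RNF43, was at 2.90 and 2.62 CPM in KO cells and at 0.548 and 1.20 CPM with NAC, and it fell by 1.67 on the log2 scale (adjusted p = 0.00412), by 1.20 without the first NAC library (adjusted p = 0.0193) and by 1.28 after removal of the trend (adjusted p = 0.0337). Of 11 tested ligands, 1 was higher and 1 lower with NAC, the same counts after removal of the trend, and neither call passed without the first NAC library. Of 17 receptors, 4 were higher and 6 lower, 4 and 5 without the first NAC library, and 5 and 1 after removal of the trend, so the balance of the receptors turned with the trend. FZD5, a Frizzled receptor, was lower with NAC than at 5% O2 by 1.40 on the log2 scale (SE 0.0939, adjusted p = 2.48e-05), at 30.2 and 28.1 CPM against 74.4 and 79.6 CPM, and the value was -1.14 after removal of the trend and -1.46 without the first NAC library.

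Over all tested genes 20.8% were lower with NAC and 23.8% higher, and within the signal transduction list 11 of 16 were lower and 2 higher. These were 10 and 2 without the first NAC library and 3 and 2 after removal of the trend. CTNNB1, which encodes beta-catenin and was picked here after its values were seen, was at 557 and 536 CPM in KO cells, 720 and 652 at 5% O2, and 912 and 988 with NAC. It rose with NAC by a log2 fold change of 0.80 (SE 0.0820, adjusted p = 2.73e-05), 0.85 without the first NAC library and 0.68 after removal of the trend (adjusted p = 0.00025). DVL1 and DVL3, which relay the signal from Frizzled, fell at 5% O2 by 0.51 and 0.47 on the log2 scale (adjusted p = 0.0145 and 0.022), and after removal of the trend by 0.21 and 0.20, where neither was called. CSNK1E, a kinase that acts on Dishevelled, had 179 and 170 counts in KO cells, 1 and 21 at 5% O2, and 3 and 2 with NAC (adjusted p = 0.00021 with NAC and 0.0128 at 5% O2). With NAC it was called also without the first NAC library (adjusted p = 0.000491) and after removal of the trend (adjusted p = 0.00154). A readthrough gene at its locus has a row of its own, so the split of reads is uncertain.

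Of 13 TCF partners and nuclear cofactors, 9 were lower with NAC, where 20.8% of all tested genes were, and 4 were not called. Without the first NAC library 10 were lower, and after removal of the trend 5 were lower and 2 higher. BCL9L, a co-activator that binds beta-catenin, was at 102 and 96.9 CPM in KO cells, 52.5 and 70.9 at 5% O2, and 37.2 and 40.2 with NAC. At 5% O2 its log2 fold change was -0.69 (SE 0.13, adjusted p = 0.0128), and -0.23 after removal of the trend, where it was not called. TCF7L1, a TCF that mainly represses its targets in pluripotent cells, was at 179 and 183 CPM in KO cells, 124 and 145 at 5% O2, and 100.3 and 94.8 with NAC. TCF7L1 had a log2 fold change of -0.43 at 5% O2 (SE 0.0939, adjusted p = 0.0233), and -0.22 after removal of the trend (adjusted p = 0.196). Since 36.3% of the exonic bases of BCL9L are shared with CXCR5 on the opposite strand, its counts are uncertain.

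Of 15 other textbook Wnt targets, 6 were lower with NAC and 1 higher, 6 and 1 of 14 without the first NAC library, and after removal of the trend 4 were lower. MIXL1, a homeobox factor of the primitive streak, had 104 and 107 counts in KO cells, 170 and 119 at 5% O2, and 26 and 34 with NAC. Its log2 fold change against 5% O2 was -2.13 (SE 0.32, adjusted p = 0.000987), -2.14 after removal of the trend and -1.80 without the first NAC library. FGF8, a growth factor of the primitive streak, had 132 and 84 counts at 5% O2 and 27 and 24 with NAC, with a log2 fold change of -1.96 (adjusted p = 0.00509), -1.88 after removal of the trend and -1.87 without the first NAC library. BMP4, a signal for mesoderm, had 109 and 99 counts at 5% O2 and 60 and 16 with NAC, and its log2 fold change of -1.43 (adjusted p = 0.0293) was -2.42 without the first NAC library and -1.43 after removal of the trend. The summed level of 8 primitive streak and endoderm markers, MIXL1 among them, was 10.6 and 13.2 CPM at 5% O2, 5.82 and 6.65 with NAC, 7.32 and 8.04 in untreated KO and 6.89 and 5.57 in WT, so the 5% O2 libraries, in which SP5 was highest, also had the highest sums. Of the 5 tested markers of that list, CXCR4 was called higher at 5% O2 against untreated KO (log2 fold change 1.59, adjusted p = 0.0237). After removal of the trend CXCR4 was not called (adjusted p = 0.0644). The other 4 tested markers were not called at 5% O2, and SOX17 was at 0 in every library. With NAC against untreated KO, where SP5 was not higher, CXCR4 was also called higher (log2 fold change 1.20, adjusted p = 0.0157). Its value there was 1.12 without the first NAC library and 0.79 after removal of the trend, where it was not called (adjusted p = 0.126). In that comparison 1 of the 5 tested markers, MIXL1, was called lower. The part of these markers in the SP5 values was not tested.

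At 5% O2 against untreated KO, 6 of the 94 other pathway genes were lower and 1, CTNNB1, was higher, where 4.13% and 3.68% of all tested genes were, and the median log2 fold change was -0.062. After removal of the trend 1 was lower and 2 higher, where 0.346% and 1.79% of all tested genes were. Between NAC and 5% O2, 13.6% of all tested genes were lower with NAC and 15.5% higher, or 7.82% and 7.51% after removal of the trend. Of the 94 other pathway genes, 22 were lower and 6 higher with NAC, and the median was -0.22. Without the first NAC library these counts were 20 and 7, and after removal of the trend 14 and 6. Of 8 tested SP and KLF factors other than SP5 and SP8, 2 were lower with NAC against untreated KO, SP2 and KLF4, against 3 without the first NAC library and SP2 alone after removal of the trend. Between KO and WT, 2 of the 94 genes were higher and 1 was lower, where 1.34% and 0.622% of all tested genes were. FZD7, a Frizzled receptor enriched in pluripotent cells, was at 244 and 238 CPM in WT and 143 and 143 CPM in KO, with a log2 fold change of -0.75 (SE 0.0900). CCND1, the cell-cycle gene for cyclin D1, was at 316 and 290 CPM in WT and 443 and 437 CPM in KO, with a log2 fold change of 0.54 (SE 0.0825), and it shares 10.4% of its exonic bases with LTO1 on the opposite strand. TCF7L1 was at 135 and 131 CPM in WT and 179 and 183 CPM in KO, with a log2 fold change of 0.45 (SE 0.0939).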

How the data were processed

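The deposited values are whole-number counts per gene, which the authors obtained from trimmed reads with HISAT2 (hg38) and featureCounts and did not normalize. FastQC 0.11.9 is named in the submitters' processing notes. Which gene models were counted is not given in the sources used here. The default mode of featureCounts is unstranded and drops reads that lie on more than 1 gene. Of 12 labelled samples, 8 libraries in 4 groups of 2 were analysed.

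Low genes were dropped by filterByExpr at a minimum count of 10. TMM factors and the quasi-likelihood test came from edgeR 4.0.16 (R 4.3.3), in 1 fit of 8 libraries with 4 residual degrees of freedom. Genes were called at a Benjamini-Hochberg adjusted p under 0.05 over the 15916 tested genes. Each standard error is the size of the log2 fold change divided by the root of its F value. CPM per kb used the MANE Select transcript of GENCODE. The biological coefficient of variation was 13.7%, and the 2 libraries of each group differed by more than sampling noise (chi-square per degree of freedom 9.79 to 32.4). Count ratios carry exact conditional intervals at a level of 0.95, for counting error only, and the floor is 3 counts a library.

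The members and gene lists were chosen with earlier results of these data known. All 10 members are named, with at most the 5 largest called changes of the other pathway genes in each comparison (1 such gene is not reported here), the targeted gene, the nearest 2 neighbours of SP5 on each side and the 5 genes most like SP5. Alternatives were DESeq2 1.42.0, other normalizations, filters, a replicate block, only the libraries compared, the criteria of the study, each library left out, and a smooth trend on length and GC content removed (mgcv 1.9.3, with both known for 93.2% of tested genes). On simulated counts for NAC against 20% O2 with 15616 genes tested, 74 of 87 genes changed by 1 log2 unit and 113 of 113 changed by 2 were recovered, with 5 false calls. The simulated counts had 1 common spread for all genes and no length or GC trend, and the changed genes had a mean above 1 CPM. These rates therefore do not carry over to SP5 and DKK1 at their low levels, or to the trend in these libraries.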

Additional observations from a re-analysis of the deposited data

How the results depend on the processing

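DKK1 is left out of the counts of called members here, since it passed the low-count filter through its NAC libraries alone. With NAC against untreated KO, 6 members and 47 other pathway genes were called, where 44.6% of all tested genes were. These were 4 and 12 by the criteria of the study, 1 and 29 with the length and GC trend removed, and from 4 to 7 and from 31 to 50 with 1 library left out, lowest without untreated KO replicate 2 for the members and replicate 1 for the others. At 5% O2 against untreated KO, 1 member and 7 others were called, where 7.81% of all tested genes were. That share was 2.02% by the criteria of the study and 2.14% with the trend removed. DESeq2 gave 2 members, no filter 2 and 13, only the libraries compared 3 and 19, the criteria of the study 4 others, the trend removed 0 and 3, and leaving out 1 library 0 to 2 and 0 to 17, where leaving out either untreated KO or either 5% O2 library gave 0 members by edgeR, with 2 to 5 at an unadjusted p under 0.05, and leaving out either NAC library gave 2 and 17. Between NAC and 5% O2, 3 members, again with DKK1, and 28 others were called, against 1 member with at least 10 counts in every library, 0 with the trend removed, 9 others by the criteria of the study, and 0 to 4 and 15 to 36 with 1 library left out, lowest without 5% O2 replicate 2. Between KO and WT, 3 other pathway genes were called, where 1.34% of all tested genes were higher and 0.622% lower. No call of the members is given, since SP5 was chosen on that contrast. Requiring at least 10 counts in every library gave 5 others, DESeq2 12, no filter 15 and only the libraries compared 12. The criteria of the study gave 5, where 2.57% of all tested genes were called. Where no share over all genes is given in this section, the counts are not read as a result about these genes.

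The cause of these changes was not tested. Removal of the trend turned the log2 fold change with NAC to 0.088 for SP5, 0.21 for LEF1 and 0.086 for ZNRF3. At 5% O2 that of ZNRF3 turned to 0.072, and between NAC and 5% O2 those of SP8 and ZNRF3 turned to 0.0021 and 0.013. Removal of the trend also moved the split over all genes at 5% O2, from 3.68% higher and 4.13% lower to 1.79% and 0.346%. Leaving out 1 library took LEF1 from -0.40 to 0.52 with NAC, from -0.23 to 0.68 at 5% O2 and from -0.44 to 0.084 between NAC and 5% O2.

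Same-numbered replicates correlated from -0.0226 to 0.0816 in their deviations from the group means, so the numbers were not taken as pairs. With the replicate block, the called members other than DKK1 were the same in the 3 comparisons among KO groups. Of the other genes, 49, 8, 29 and 8 were called in the same order of comparisons, and LEF1 with NAC turned to 0.032. The block together with the trend, added after seeing the data, gave 1, 0 and 0 members in the 3 comparisons among KO groups. In the second of these, 2 members had an unadjusted p under 0.05. Of the other genes, 27 and 2 were called in the first and second comparison. SP5 was then at 0.076, LEF1 at 0.25 and ZNRF3 at 0.0895 with NAC, and ZNRF3 was at 0.074 at 5% O2. Between NAC and 5% O2, SP8 was at 0.00081 and ZNRF3 at 0.015. By Spearman's correlation, 2 of the 5 genes most like SP5 were shared. Depth limits SP5 in WT, and DKK1 outside NAC, to a few counts.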
